A study of Mus musculus with 10 samples.

Results

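Matricellular proteins are secreted into the extracellular matrix, where they act on cells and on the assembly of other matrix proteins more than they bear load themselves. Tenascin C, thrombospondins, periostin, Sparc, osteopontin and fibronectin are known for rising where tissue is injured or rebuilt, whereas tenascin X is a standing component of adult connective tissue. In skeletal muscle they are made mainly by cells of the connective tissue and, for some members, by fibres, tendon cells and platelets. The 10 genes examined here were chosen by name: Tnc, Tnxb, Thbs1, Thbs2, Thbs3, Thbs4, Postn, Sparc, Spp1 and Fn1. Each was read from the brightest probe set that carried its symbol alone. Of these, 9 had such a probe set, 1 each, among 22180 genes in all. Spp1, which encodes osteopontin, had no probe set with its symbol alone and has no value here.

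The values come from plantaris, a calf muscle, of male C57BL/6 mice, hybridised to Mouse Gene 2.1 ST arrays. The 5 groups were no synergist ablation and no PDGF inhibitor, synergist ablation for 3 d without and with a PDGF inhibitor, and synergist ablation for 10 d without and with the inhibitor. Synergist ablation overloads the plantaris by removing muscles that share its work, and the inhibitor blocks signalling by platelet-derived growth factor, a growth factor for fibroblasts and other mesenchymal cells. The labels name neither the inhibitor nor its dose, nor the age of the mice, and they describe no group with the inhibitor and no overload. Each array held RNA pooled from 4 muscles, and each group had 2 pools, so n = 2 pools per group throughout and p-values measure only the spread between pools. In whole muscle, fewer cells of a type and less RNA per cell cannot be told apart. Levels are log2 units, in which a step of 1 is a doubling, and levels of different genes are not compared.

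The 12 marker genes of muscle fibres had mean levels between 11.3 and 11.8 log2 units in all 10 pools. A pair of pools stood apart in some markers of other tissues. Pool 1 of 3 d overload held Ibsp, a bone matrix gene, at 6.18 against at most 2.0 in the other 9 pools. Elane and Mpo, enzymes of granulocyte precursors, were there at 5.21 and 5.02 against at most 1.75 each. Ngp (6.89), Ltf (5.54), Camp (3.68) and Dmp1 (3.45) were also highest in that pool. Bglap (1.19) and Sp7 (1.14) lay within the range of the other pools. Lcn2 (6.92), Cxcr2 (3.66) and Ly6g (2.54) were exceeded in inhibitor pools (7.31, 3.89 and 2.79). Pool 2 of 10 d overload held Acan, the main proteoglycan of cartilage, at 6.06 against at most 2.31 in the other 9 pools. The other cartilage and bone markers did not stand apart to that extent in that pool. Col2a1 was at 3.65 there and at up to 3.28 elsewhere, and Bglap (0.55) and Mepe (1.61) were lowest there. The source of these transcripts in either pool was not tested. Values without these pools are given beside the results below where they differ most.

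Sequences of 250 bases before an annotated transcript start, from RefSeq (GRCm38.p6), are shown for the member with the largest rise at 3 d (Tnc), for a pair whose levels ran together over the pools (Postn and Thbs4) and for the member that did not pass in any comparison (Tnxb). Capitals mark a match on either strand to the TATA box TATAAA, the AP-1 site TGANTCA, the TEAD or MCAT site GGAATG, the Ets core GGAAGT, the E-box CAGCTG, the Smad core CAGACA or the CArG box.
Tnc, chr4:64046937-64047186, minus strand: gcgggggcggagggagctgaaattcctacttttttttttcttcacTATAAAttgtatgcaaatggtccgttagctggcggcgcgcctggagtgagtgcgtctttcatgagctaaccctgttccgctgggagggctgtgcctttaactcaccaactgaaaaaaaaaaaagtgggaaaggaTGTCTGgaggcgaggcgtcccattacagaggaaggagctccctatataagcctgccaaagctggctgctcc
Postn, chr3:54360857-54361106, plus strand: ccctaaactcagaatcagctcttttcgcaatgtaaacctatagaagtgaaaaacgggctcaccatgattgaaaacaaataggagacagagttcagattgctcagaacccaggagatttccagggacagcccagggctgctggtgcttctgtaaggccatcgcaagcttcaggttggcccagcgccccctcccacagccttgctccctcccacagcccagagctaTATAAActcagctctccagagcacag
Thbs4, chr13:92794819-92795068, minus strand: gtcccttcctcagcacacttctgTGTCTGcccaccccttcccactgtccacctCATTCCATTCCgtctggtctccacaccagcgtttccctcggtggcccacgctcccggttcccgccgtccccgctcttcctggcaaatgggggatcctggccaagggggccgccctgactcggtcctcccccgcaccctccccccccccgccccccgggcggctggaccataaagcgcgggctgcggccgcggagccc
Tnxb, chr17:34670285-34670534, plus strand: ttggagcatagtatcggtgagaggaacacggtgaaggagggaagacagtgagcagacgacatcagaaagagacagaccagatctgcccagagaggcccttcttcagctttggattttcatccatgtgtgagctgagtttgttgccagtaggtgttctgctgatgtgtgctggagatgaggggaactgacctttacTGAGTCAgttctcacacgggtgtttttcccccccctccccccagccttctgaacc
The Tnc window held the TATA letters 205 bases and a Smad core 71 bases before this start, which is the downstream one of the starts listed for Tnc. Only the exact letters were searched, so near variants, such as tatataag closer to this Tnc start, are not marked. The Postn window held the TATA letters 26 bases before its start and no other match. Its start is also the downstream one of those listed for Postn. The window of the upstream Postn start, chr3:54359017-54359266, held none of these matches. The Thbs4 window held a pair of MCAT letters, CATTCC, that overlap, at 197 and 192 bases, and a Smad core at 227 bases. Tnxb was the only one of the 8 members with a listed promoter to hold the AP-1 letters, 55 bases before its start. Thbs1 and Fn1 were the members not matched. Among 32851 such windows, 12.4% held the TATA letters, 12.6% the MCAT letters, 17.1% the Smad core, 6.75% the AP-1 letters, 19.7% the Ets core, 13% the E-box and 1.47% a CArG box. These matches describe letters and not bound sites.

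The first question was how the genes responded to overload. After 3 d, 7 of the 9 genes rose against no overload by the moderated test of limma (Benjamini-Hochberg adjusted p under 0.05 over all 22180 genes), and none fell. Of all genes, 9.31% rose and 8.18% fell in that comparison. After 10 d, 7 of 9 rose and none fell, where 3.9% of all genes rose and 1.23% fell. Both overload pools lay above both pools without overload in 8 of 9 genes at 3 d, where 25.1% of all genes did, and in 8 of 9 at 10 d, where 22.1% did. The median change over the 9 genes was 1.85 log2 units at 3 d and 2.11 at 10 d, beside -0.04 at each time over all genes. The comparisons at 3 d and 10 d share the pools without overload. The called genes were not the same at both times: Thbs1 was called at 3 d only and Thbs2 at 10 d only, and neither passed the test between the times. When dim genes were not tested, both were called at both times (adjusted p = 0.0249 for Thbs1 at 10 d and 0.0282 for Thbs2 at 3 d). Without the 3 d pool that held bone and granulocyte transcripts, Thbs1 (2.25 log2 units) and Thbs3 (1.25) lost their 3 d calls. Thbs3 lost its call without the other 3 d pool too. Without the 10 d pool that held Acan, the median change at 10 d was 1.57. Each of these fits leaves 1 pool in a group, and the cause of a lost call was not tested.

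Tenascin C (Tnc) is a large matrix glycoprotein of myotendinous junctions and of healing tissue. Its level was 4.48 and 4.59 in the pools without overload, 9.88 and 9.71 after 3 d, and 7.06 and 8.27 after 10 d. In inhibited pools it was 8.90 and 9.11 at 3 d and 6.00 and 6.08 at 10 d. No pair of neighbouring groups overlapped, in the order 3 d, 3 d with inhibitor, 10 d, 10 d with inhibitor and no overload. The change at 3 d was 5.26 ± 0.32 (log2, SE; adjusted p = 8.15e-05), the second largest rise of all genes. At 10 d it was 3.13 ± 0.32 (adjusted p = 0.00279).

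Tenascin X (Tnxb), which associates with collagen fibrils and is needed for normal connective tissue, did not follow Tnc. Its level was 6.72 and 6.93 without overload, 6.36 and 6.37 at 3 d, and 7.25 and 6.82 at 10 d. Under the inhibitor it was 6.37 and 6.34 at 3 d and 6.76 and 6.59 at 10 d. The 3 d pools lay below the pools without overload, but the difference of -0.46 ± 0.17 did not pass (adjusted p = 0.108). It passed when dim genes were not tested (adjusted p = 0.0433) and with an intensity trend in the prior (adjusted p = 0.0434). The 10 d pools overlapped those without overload.

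Periostin (Postn), a fibroblast product that promotes collagen cross-linking, stood at 5.98 and 6.82 without overload. It reached 10.83 and 10.96 at 3 d and 10.23 and 11.40 at 10 d. Pools given the inhibitor stood at 10.36 and 10.45 at 3 d and 9.80 and 9.63 at 10 d. Every overloaded pool lay above both pools without overload. The changes were 4.50 ± 0.37 at 3 d (adjusted p = 2.07e-04) and 4.41 ± 0.37 at 10 d (adjusted p = 0.00162).

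**Figure D1:**
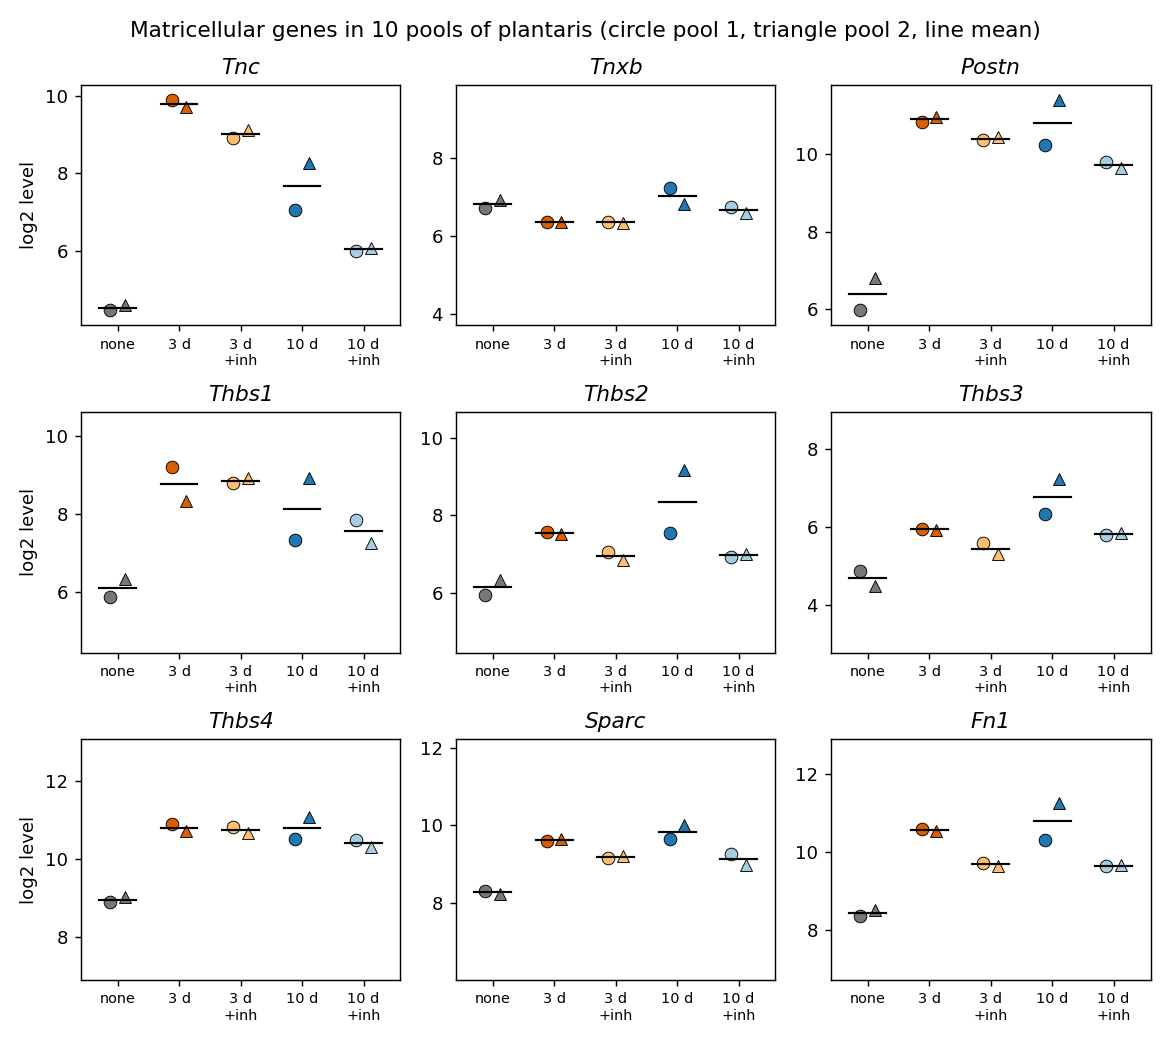
Log2 level (vertical axis, the same span in every panel) of the 9 measured genes in each group (horizontal axis: no overload, 3 d, 3 d with inhibitor, 10 d, 10 d with inhibitor); circles are pool 1, triangles pool 2 and lines the mean of 2 pools. Tnc steps down from 3 d to 10 d, Postn stays high, Tnxb moves least, and pool 2 of 10 d overload lies above pool 1 for every gene except Tnxb.

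Thrombospondins bind calcium, matrix and cell surface receptors, and fall into a trimeric pair, Thbs1 and Thbs2, and a pentameric group that includes Thbs3 and Thbs4. Thbs1, which activates latent TGF-beta and is stored in platelets, was at 5.86 and 6.33 without overload, 9.20 and 8.34 at 3 d and 7.33 and 8.94 at 10 d. The inhibited pools stood at 8.80 and 8.92 at 3 d and 7.86 and 7.26 at 10 d. All overloaded pools lay above those without overload, and the overloaded groups overlapped in turn. It rose at 3 d (2.68 ± 0.49, adjusted p = 0.00648), but not without the 3 d pool that held bone and granulocyte transcripts (2.25, adjusted p = 0.0539). Its change at 10 d was 2.04 ± 0.49 (adjusted p = 0.0515, and 0.0482 with array medians equalised), and without the 10 d pool that held Acan it was 1.24. Without the other 10 d pool it was 2.85.

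Thbs2, which limits vessel growth and shapes collagen fibrils, was at 5.95 and 6.32 without overload, 7.55 and 7.52 at 3 d and 7.54 and 9.16 at 10 d. In inhibited pools it was 7.04 and 6.83 at 3 d and 6.92 and 7.0 at 10 d. The 3 d change of 1.40 ± 0.42 did not pass (adjusted p = 0.0536), and passed with array weights (0.0393) and with the compared groups alone (0.0118). The 10 d rise was 2.21 ± 0.42 (adjusted p = 0.0236), with adjusted p = 0.124 and 0.0677 without pool 1 or pool 2 of no overload, and 1.40 log2 units without the 10 d pool that held Acan.

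Thbs3 was at 4.86 and 4.49 without overload, 5.95 and 5.92 at 3 d and 6.32 and 7.24 at 10 d. Under the inhibitor it was 5.59 and 5.30 at 3 d and 5.80 and 5.85 at 10 d. It rose by 1.26 ± 0.28 at 3 d (adjusted p = 0.0139) and by 2.11 ± 0.28 at 10 d (adjusted p = 0.00589). The 3 d call was lost without either 3 d pool (adjusted p = 0.0749 and 0.0635) or without pool 2 of no overload (adjusted p = 0.0846).

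Thbs4, the thrombospondin of tendon and muscle attachment sites, was at 8.88 and 9.03 without overload, 10.89 and 10.72 at 3 d and 10.52 and 11.09 at 10 d. With the inhibitor it was 10.81 and 10.66 at 3 d and 10.48 and 10.32 at 10 d. The rise was 1.85 ± 0.20 at each time (adjusted p = 5.94e-04 at 3 d and 0.00298 at 10 d). The difference between the times was 0.00, with a 95% interval from -0.44 to 0.45.

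Sparc, a collagen-binding protein of secretory and bone cells, was at 8.31 and 8.23 without overload, 9.58 and 9.63 at 3 d and 9.65 and 10.00 at 10 d. With the inhibitor it was 9.16 and 9.19 at 3 d and 9.26 and 8.97 at 10 d. It rose by 1.34 ± 0.16 at 3 d (adjusted p = 0.00101) and by 1.56 ± 0.16 at 10 d (adjusted p = 0.00279). Fibronectin (Fn1), an adhesive matrix protein bound by the integrin subunit Itga5, was at 8.34 and 8.5 without overload, 10.60 and 10.54 at 3 d and 10.31 and 11.27 at 10 d. With the inhibitor it was 9.71 and 9.65 at 3 d and 9.64 and 9.66 at 10 d. It rose by 2.15 ± 0.26 at 3 d (adjusted p = 0.00105) and by 2.37 ± 0.26 at 10 d (adjusted p = 0.00356). Tnc, Postn, Thbs4, Sparc and Fn1 kept their calls at both times whichever single pool was left out. When only the pools of no overload and 10 d overload entered the fit, none of the 7 genes passed at 10 d (adjusted p = 0.0648 to 0.151).

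Between the times, 1 of 9 genes was called, where 3.38% of all genes fell and 2.7% rose. Tnc was lower at 10 d than at 3 d by -2.13 ± 0.32 (log2; adjusted p = 0.0103), the pools not overlapping, while Postn differed by -0.08 ± 0.37 (95% interval -0.93 to 0.76). The Tnc call was lost with the compared groups alone (adjusted p = 0.0804) and without the 3 d pool that held bone and granulocyte transcripts (-2.04). Tnxb was 0.67 ± 0.17 higher at 10 d (adjusted p = 0.0572) and Thbs3 0.84 ± 0.28 higher (adjusted p = 0.118), and neither was called. Tnxb, Thbs3 and Sparc were higher at 10 d without overlap of pools, as 24.6% of all genes were, and Tnc was lower, as 24.2% were. Tnxb passed with quantile normalization (adjusted p = 0.0471) and without dim genes (adjusted p = 0.0189). The remaining changes ran from -0.64 in Thbs1 to 0.81 in Thbs2 and did not pass. Without the 10 d pool that held Acan, Thbs2 stood at 0.0012, Postn at -0.66, Fn1 at -0.26 and Tnxb at 0.88. Without the other 10 d pool, Thbs2 stood at 1.62 and Thbs3 at 1.30.

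The next question was whether the PDGF inhibitor altered these genes during overload. No member was called by limma at 3 d or at 10 d, or for the mean of both effects, while 3, 6 and 6 members were lower with an unadjusted p under 0.05, as 4.48%, 6.24% and 7.01% of all genes were. The shares called in either direction over all genes were 0%, 0.104% and 0.289%. At 3 d, no gene of 22180 passed with limma, and 2011 had an unadjusted p under 0.05. At 10 d the change was negative in all 9 genes, from -0.36 in Tnxb to -1.63 in Tnc, with a median of -0.95 beside 0.01 over all genes. Without the 10 d overload pool that held Acan the median was -0.54, and Thbs1 stood above 0, at 0.23. In 8 of the 9 genes both inhibitor pools lay below both overload pools at 10 d, where 19.5% of all genes did so. Thbs1 was the exception. At 3 d this held for 6 of 9 genes (Tnc, Thbs2, Thbs3, Postn, Sparc and Fn1), where 17.7% of all genes did so. The same 6 were lower without overlap at both times, where 5.88% of all genes were. The members' levels were correlated over the pools, so these counts are not of independent genes.

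Tnc showed the lowest of these estimates at 10 d, -1.63 ± 0.32 (adjusted p = 0.139; 95% interval -2.36 to -0.89), and -0.79 ± 0.32 at 3 d (adjusted p = 0.523). Fn1 differed by -1.14 ± 0.26 at 10 d (adjusted p = 0.181) and by -0.89 ± 0.26 at 3 d (adjusted p = 0.367). Sparc differed by -0.71 ± 0.16 at 10 d (adjusted p = 0.178, and 0.0181 with an intensity trend and robust prior) and by -0.43 ± 0.16 at 3 d (adjusted p = 0.482). For the mean of both effects these were the members with the smallest p: -1.02 ± 0.19 for Fn1 (adjusted p = 0.0730), -1.21 ± 0.23 for Tnc (0.0750) and -0.57 ± 0.11 for Sparc (0.0879). All of them passed for that mean when dim genes were not tested (adjusted p = 0.0331 to 0.0358).

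Thbs2 was lower with the inhibitor at 10 d by an estimate of -1.38 ± 0.42 (adjusted p = 0.280), Postn by -1.10 ± 0.37 (adjusted p = 0.324) and Thbs3 by -0.95 ± 0.28 (adjusted p = 0.257). Thbs4 and Thbs1 had smaller estimates, -0.41 ± 0.20 and -0.58 ± 0.49. At 3 d, Thbs1 and Thbs4 differed by 0.09 and -0.07, and the 95% interval of Thbs1, from -1.03 to 1.21, spans a doubling in either direction. No member passed the test of the difference between the 10 d and 3 d effects (adjusted p from 0.802 to 0.930), in which no gene of 22180 passed and 1434 had an unadjusted p under 0.05.

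**Figure D2:**
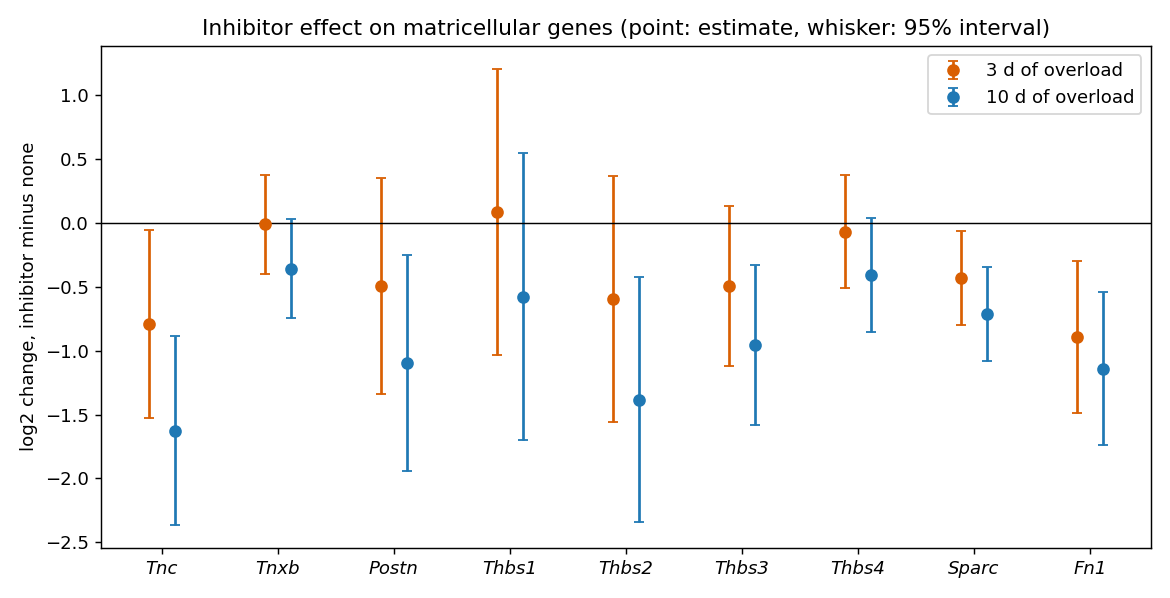
Difference between overload with and without the PDGF inhibitor (vertical axis, log2 units) for the 9 genes (horizontal axis) at 3 d and 10 d; points are estimates of the fit over 10 pools and whiskers 95% intervals. At 10 d all 9 points lie below 0, with Tnc lowest at -1.63, and none passed after adjustment over all genes.

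The 10 d estimates rested on unequal overload pools. Pool 2 of 10 d overload exceeded pool 1 by at least 0.5 log2 units in 7 of 9 genes, where 8.64% of all genes did so. The gap was 1.62 in Thbs2, 1.61 in Thbs1, 1.22 in Tnc and 1.16 in Postn, and it was -0.43 in Tnxb. The median absolute gap over the 9 genes was 0.95 between these pools and 0.05 to 0.21 between the pools of the other groups, beside 0.20 over all genes in 10 d overload. Mean marker levels in pools 1 and 2 were higher in pool 2 for fibroblasts (8.23 and 8.85), tendon cells (6.30 and 6.94), macrophages (5.40 and 6.06) and satellite cells (5.46 and 5.70). The mean of the cartilage and bone list was 1.83 and 2.4. Within that list Acan stood at 2.07 in pool 1 and 6.06 in pool 2. Col2a1, Ibsp and Dmp1 were also higher in pool 2, by less, and Bglap, Mepe and Sp7 were lower. Smaller differences were seen for endothelium (7.53 and 7.38), smooth muscle (7.41 and 7.31), muscle fibres (11.78 and 11.76), platelets (3.49 and 3.50) and Schwann cells (3.71 and 3.78). Neutrophil means (1.70 and 1.64) lay below the array medians of 2.41 and 2.44, as did those of cartilage and bone. The part of any of these cells in the gap was not tested. Without pool 1, the inhibitor estimate at 10 d was -2.23 for Tnc, -2.20 for Thbs2, -1.62 for Fn1 and -1.41 for Thbs3. A fit with 1 pool of 10 d overload takes its spread from the other groups, whose gaps were smaller. Gains of calls are therefore not read from it. Without pool 2, the one that held Acan, no member was called. Tnc then stood at -1.02 (adjusted p = 0.196), Fn1 at -0.66, Thbs2 at -0.57, Sparc at -0.54, Postn at -0.51, Thbs3 at -0.50 and Thbs4 at -0.12, and Tnxb at -0.57.

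**Figure D3:**
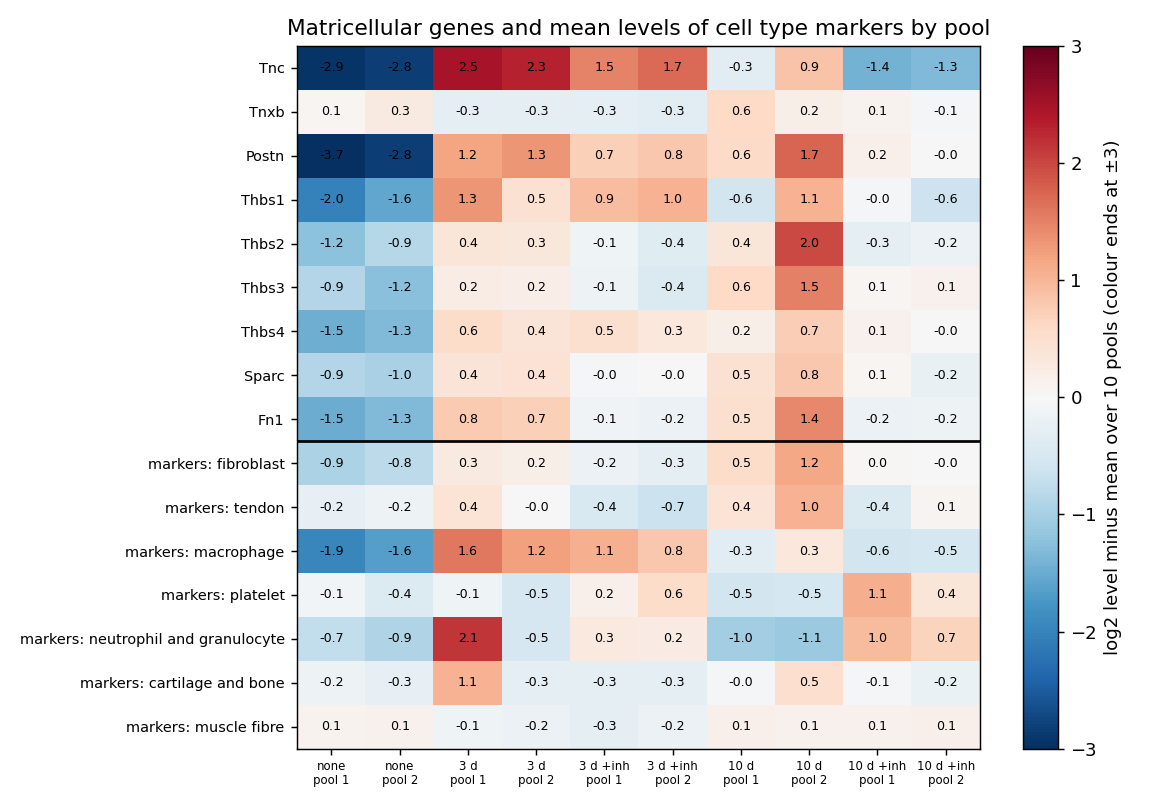
Levels in each of the 10 pools (columns) minus the mean over pools (colour and printed values, log2 units) for the 9 genes (upper rows) and for mean levels of cell type marker lists (lower rows). Pool 2 of 10 d overload lies above pool 1 in 8 of the 9 genes and in fibroblast and tendon markers, pool 1 of 3 d overload in neutrophil and granulocyte markers, and the inhibitor pools at 10 d in platelet markers.

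Each inhibited group was also compared with no overload. At 3 d with the inhibitor, 6 of 9 genes rose, where 7.71% of all genes did: Tnc (4.47 ± 0.32), Postn (4.0 ± 0.37), Thbs1 (2.77 ± 0.49), Thbs4 (1.78 ± 0.20), Fn1 (1.25 ± 0.26) and Sparc (0.91 ± 0.16). The Fn1 call was lost in 4 omissions of a single pool, those of either 3 d inhibitor pool or either pool without overload, and the Thbs1 call without pool 1 of no overload (adjusted p = 0.0509). At 10 d with the inhibitor 3 of 9 rose, where 1.13% of all genes did: Postn (3.32 ± 0.37, adjusted p = 0.00598), Thbs4 (1.45 ± 0.20, adjusted p = 0.0143) and Sparc (0.85 ± 0.16, adjusted p = 0.0441). Sparc was called in 2 of 10 omissions and Thbs4 in 6, and Postn was lost without pool 1 of the inhibited group (adjusted p = 0.0710). Tnc (1.51 ± 0.32, adjusted p = 0.0618) and Fn1 (1.23 ± 0.26, adjusted p = 0.0614) did not pass. Both passed, with Thbs3, when dim genes were not tested, which gave 6 calls. These comparisons share the pools without overload with those above.

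**Figure D4:**
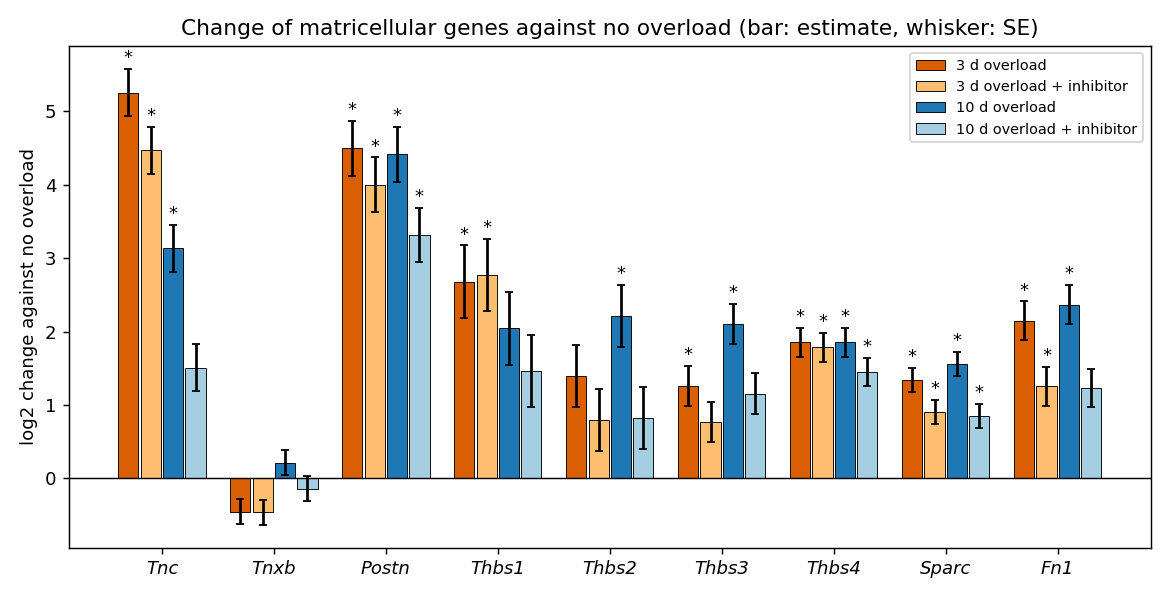
Log2 change against no overload (vertical axis) of the 9 genes (horizontal axis) after 3 d and 10 d of overload without and with the PDGF inhibitor; bars are estimates, whiskers standard errors, and asterisks mark adjusted p under 0.05 over all genes. Postn, Thbs4 and Sparc carry an asterisk in all 4 groups, and Tnxb in none.

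The members differed in what they ran with over the 10 pools, which share 5 group means and are described without a test. Postn and Thbs4 correlated at r = 0.99, Fn1 and Sparc at 0.98 and Thbs2 and Thbs3 at 0.94, whereas Tnc correlated with Thbs3 at 0.49 and with Tnxb at -0.62. Among 1152 other genes that varied and were not dim, the closest in pattern to Tnc were B4galt6 (Pearson r = 0.995), Sdc2 (0.992) and Ms4a4a (0.990). Postn lay closest to Bgn (0.992), a small proteoglycan, Lgals1 (0.987) and F2r (0.985), and Thbs4 to Lgals1 (0.986), Bgn (0.985) and Map1b (0.985). Thbs2 lay closest to Aspn (0.981), Col12a1 (0.977) and Col1a2 (0.971), and Thbs3 to Mfap4 (0.992), Mxra8 (0.988) and Mest (0.976). Fn1 was most like Fkbp7 (0.996), the collagen chain gene Col5a1 (0.992) and Lsp1 (0.986), and Thbs1 was most like Arpc5 (0.970), Fads3 (0.968) and Adgrd1 (0.965). Sparc and Tnxb, whose levels spanned less than the other members', were not set against other genes.

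Other genes of the same biology were counted by list. For each list the shares over all genes were 9.31% risen and 8.18% fallen at 3 d, and 3.9% and 1.23% at 10 d. From 3 d to 10 d they were 2.7% and 3.38%. Of 24 other matricellular and adhesive matrix genes, 7 rose and 1 fell at 3 d, with a median of 0.19. The rises were led by Ccn4 (2.66 ± 0.30), Ccn1 (1.87 ± 0.26), Tgfbi (1.75 ± 0.22) and Ccn2 (1.65 ± 0.22). At 10 d, 6 rose and none fell, with a median of 0.62, led by Ccn4 (2.53 ± 0.30), Emilin1 (1.45 ± 0.23), Fbln7 (1.42 ± 0.24) and Fbln2 (1.08 ± 0.19). From 3 d to 10 d Ccn3, Fbln7, Fbln5 and Smoc2 were among 5 that rose, by 1.49, 1.2, 0.96 and 0.63, and none of the list fell. With the inhibitor at 10 d none passed, and 19 of 24 changes were below 0 (median -0.40). Refits without the 3 d pool that held bone and granulocyte transcripts, or without the 10 d pool that held Acan, gave fewer rises in this list. Each leaves 1 pool in a group, and no list was counted without any other pool. The cause of the loss was therefore not tested.

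Of 20 receptors of matricellular proteins, 8 rose and 2 fell at 3 d (median 0.60). The largest rises were in Cd44 (2.73 ± 0.19), a receptor of hyaluronan and osteopontin, the fibronectin receptor subunit Itga5 (2.54 ± 0.14), the scavenger receptor Stab1 (2.24 ± 0.18), which takes up Sparc, and Itga4 (1.61 ± 0.21). From 3 d to 10 d 5 of the 20 fell and 1 rose, among them Cd44 (-1.44 ± 0.19), Itga5 (-1.27 ± 0.14), Stab1 (-0.99 ± 0.18) and Itga4 (-0.88 ± 0.21). Against no overload at 10 d, Cd44, Itga5, Stab1 and Lrp1 led 5 rises (1.29, 1.26, 1.25 and 1.11). No receptor passed for the inhibitor at either time. In the same refits fewer receptors rose at 3 d or 10 d and fewer fell between the times, with the same limit.

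Of 15 enzymes that cleave or cross-link such proteins, 7 rose at 3 d (median 1.08), led by Mmp14 (2.28 ± 0.36), Mmp3 (1.98 ± 0.47), Ctsk (1.90 ± 0.42) and Plat (1.62 ± 0.23). At 10 d, 5 rose, led by Mmp14 (3.15 ± 0.36) and Ctsk (3.07 ± 0.42), and none fell. Of 26 growth factors and transcription factors tied to the members, 9 rose at 3 d (median 0.26), led by the interleukin receptor subunits Il4ra (2.62 ± 0.20) and Il13ra1 (2.22 ± 0.28), Tgfb1 (1.92 ± 0.17) and the tendon transcription factor Scx (1.91 ± 0.20). From 3 d to 10 d, 3 of them fell and none rose: Il4ra (-1.53 ± 0.20), Tead4 (-0.96 ± 0.14) and Tgfb1 (-0.83 ± 0.17). No enzyme or factor of these lists passed for the inhibitor at either time. Fewer enzymes and factors rose at 3 d without the same 3 d pool, and at 10 d without the same 10 d pool. These fits also leave 1 pool in a group, and the cause was not tested.

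Markers of cell types that make or carry the members were read beside them. At 3 d all 13 macrophage markers rose (median 2.96), with 7 of 12 fibroblast markers (1 fell), 2 of 8 tendon cell markers and 1 of 8 platelet markers. Of all genes, 9.31% rose at 3 d and 3.9% at 10 d. The platelet marker that rose at 3 d was Pf4, and 5 of the 8 platelet changes were below 0 (median -0.35). At 10 d, 11 of 13 macrophage, 10 of 12 fibroblast, 3 of 8 tendon cell and no platelet markers rose, and none of these fell. From 3 d to 10 d, 8 of 13 macrophage markers fell, where 3.38% of all genes did. Fewer fell without the 3 d pool that held bone and granulocyte transcripts, a fit that leaves 1 pool in that group. Fewer macrophage, fibroblast and tendon cell markers rose at 10 d without the 10 d pool that held Acan, which leaves 1 pool there. With the inhibitor at 10 d, the 12 fibroblast markers had a median of -0.82 and the 8 tendon cell markers of -0.68, and none passed, and without the pool that held Acan the medians were -0.49 and -0.37. Mean fibroblast levels were 7.74 and 7.69 with the inhibitor at 10 d. Platelet markers, of interest for Thbs1, had mean levels of 5.12 and 4.41 with the inhibitor at 10 d, against 3.49 and 3.50 without it, and no platelet marker passed in that comparison. Neutrophil markers stood at 3.69 and 3.40 with the inhibitor at 10 d against 1.70 and 1.64 without it, and Lcn2 (2.72 ± 0.31, adjusted p = 0.0303) and Csf3r (1.23 ± 0.13, adjusted p = 0.0256) rose. For the mean inhibitor effect Lcn2 (1.65, adjusted p = 0.0291) and the platelet gene Gp9 (1.89, adjusted p = 0.0418) rose, and the tendon gene Tnmd fell (-1.76, adjusted p = 0.0499). None of these calls held without the 10 d pool that held Acan, a fit that leaves 1 pool in that group. Pools 1 and 2 of 10 d overload were close in Lcn2 (3.81 and 3.79) and Csf3r (3.29 and 3.31). Tnmd was higher in pool 2, the one that held Acan (8.03 and 9.12), and Gp9 was lower there. No marker list was counted without any other pool, and the cause of these losses was not tested. Of the fibroblast, tendon cell, macrophage and platelet lists, no measured marker lay at or below the array median in every pool. The part of these cells in the members' levels was not tested.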

How the data were processed

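Plantaris RNA in 5 groups of 2 pools, each pool from 4 muscles, was measured on 10 arrays. The deposited values are log2 levels that the authors made with RMA (background correction, quantile normalization and probe set summary) in the oligo package, per the submitters' processing notes, which also list limma. The labels name different labelling kits in different fields, and array number limits the precision. Of 41345 probe sets, 23521 carried 1 symbol, 1814 carried several and 16010 were not listed. The brightest probe set stood for each of 22180 genes.

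A model with 1 coefficient per group was fitted to all 10 arrays with limma 3.58.1 in R 4.3.3, with empirical Bayes moderation (5 residual and 3.58 prior degrees of freedom), two-sided tests and Benjamini-Hochberg adjustment over 22180 genes. The fit was run on simulated data with independent noise of the same spread per gene in all groups. Those data do not hold the larger gap between the 10 d overload pools, so they do not test the fit under it. All members were named, and from each list at most 4 called genes per comparison, those of largest change. Similar genes had a mean of at least 4 log2 units and an SD of at least 0.5. The members and lists were chosen with earlier results of these data known.

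Alternatives were equalised array medians, quantile normalization, the mean of probe sets, leaving out dim genes (under 4 log2 units in all but at most 1 array), an intensity trend with a robust prior, array weights, a fit of the compared groups alone and omission of each pool. List counts without the 2 pools that stood apart were added after seeing the data. No list was counted without any other pool.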

Additional observations from a re-analysis of the deposited data

Results flagged for a closer look

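The overload effect on Tnc was smaller at 10 d than at 3 d by a log2 difference of -2.13, a comparison of the effects at the times that passed limma's test (adjusted p = 0.0103). Both effects are taken against the same pools without overload, so this equals the direct comparison of 10 d with 3 d. Both 10 d pools lay below both 3 d pools. With the compared groups alone the call was lost (adjusted p = 0.0804). Over the omissions of single pools the difference ran from -2.73 to -1.52, and the call was lost without pool 1 of 3 d overload (adjusted p = 0.0735).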

How the results depend on the processing

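No paired analysis was possible because the labels give the groups no shared replicate numbers. Of 1377 refitted changes of members, 1270 kept their direction and side of the threshold, 34 lost and 56 gained the call, and 17 changed sign, none of them called under either setting. Of 306 refitted counts, 230 stayed within 1.5 times the original. When dim genes were left out, genes called numbered 1980 at 10 d against no overload, 2440 for 10 d against 3 d, 6 and 69 for the inhibitor at 3 d and 10 d, 288 for its mean effect and 895 for 10 d with inhibitor against no overload. With an intensity trend and robust prior these were 2115, 2458, 14, 161, 455 and 1068. Both settings gave 3 members for the mean inhibitor effect and 6 for 10 d with inhibitor against no overload, where array weights gave 5. For 10 d against 3 d the members called were 2 with quantile normalization, 2 without dim genes, 3 with the trend and 0 with the compared groups alone, and for the inhibitor at 10 d 1 with the trend. With the compared groups alone, 31 genes and 0 members were called at 10 d against no overload, 202 genes for 10 d against 3 d, 3 for the inhibitor at 10 d, 1933 for 3 d with inhibitor against no overload and 102 for 10 d with inhibitor against no overload. That fit has fewer samples; otherwise the cause was not tested. Leaving out single pools gave 2146 to 3850 genes and 5 to 8 members for 3 d against no overload, 259 to 1232 and 6 to 8 for 10 d against no overload, and 218 to 1096 and 0 to 3 for 10 d against 3 d. For the inhibitor it gave 0 to 7 genes and 0 to 0 members at 3 d, 0 to 180 and 0 to 4 at 10 d, 0 to 341 and 0 to 5 for the mean effect, and 0 to 14 and 0 to 0 for the difference of effects. For the inhibited groups against no overload it gave 1343 to 3178 genes and 4 to 8 members at 3 d, and 31 to 486 and 0 to 6 at 10 d. A group left with 1 pool was assumed to vary like the others. For 10 d overload the values go against this: its pools differed by a median of 0.95 over the members, against 0.05 to 0.21 in the other groups. Calls gained by leaving out a 10 d overload pool rest on that assumption. With 2 pools a group, small changes are not resolved.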
